A study of Arabidopsis thaliana with 9 samples.

Results

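The xyloglucan endotransglucosylase/hydrolase (XTH) genes of Arabidopsis thaliana are the 33 loci numbered XTH1 to XTH33, and they were taken from the table of array values by locus identifier. All 33 were among the 20777 measured loci. Their enzymes act on xyloglucan, a branched glucan that coats and tethers cellulose in the primary wall. Most of them cut a xyloglucan chain and join the new end to another chain, which lets a wall be remodelled while it stretches, and a few mainly cut it with water. Many members answer to growth hormones, light or mechanical stimulation, and TCH4 (XTH22) was one of the first genes known to be induced by touch and by brassinosteroid.

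RNA came from the vegetative part of seedlings at growth stage 1.03, grown in vitro at 22 °C under a day of 16 h light and 8 h dark, and was hybridised to Affymetrix ATH1 arrays. Each of 3 genotypes, all in the Col-0 ecotype, had 3 biological repeats: wild type, a line with the genotype entry 35S::AVP1, where the viral 35S promoter drives broad expression, and a line with extra BRI1. For the last, the genotype entry reads pBRI1::BRI1 and the source name 35S::BRI1, so its promoter cannot be told from the labels, and the sources used here do not state how many independent transgenic lines stand behind each genotype. AVP1 is a vacuolar pyrophosphatase that pumps protons, and BRI1 is the receptor for brassinosteroid.

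The BRI1 array values were 9.51 to 9.58 in wild type and 12.18 to 12.34 in the BRI1 line on the log2 scale. AVP1 was 12.58 to 12.71 in wild type and 12.49 to 12.57 on the arrays labelled 35S::AVP1, so the label was not borne out by a higher AVP1 signal, and the directions given for that genotype below are those of "the arrays labelled 35S::AVP1". Of the leaf markers, RCA, the activase of Rubisco, lay at 14.10 to 14.32 on the 9 arrays and the glycine decarboxylase gene GLDP1 at 12.63 to 12.84. Of the root markers, the root hair genes EXPA7, EXPA18 and COBL9 lay at 4.29 to 5.15 on all arrays and RHD2 at 4.60 to 4.77. PYK10, also a root marker, lay at 10.85 to 11.85 on the 9 arrays, so the root markers differed widely in level. The 10th percentile of the arrays ran from 3.71 to 3.79 and their median from 6.34 to 6.42. In bulk tissue, fewer cells of a type and less RNA per cell cannot be told apart.

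The 33 members differed in how far they rose above the lower end of the scale. The 13 members XTH4, XTH6, XTH7, XTH8, XTH9, XTH16, XTH17, XTH22, XTH24, XTH27, XTH28, XTH31 and XTH32 lay above the array median on all 9 arrays. Another 19 lay below it on all 9, and XTH19 crossed it on 1 array. In 14 members the mean over all arrays was among the dimmest 25% of all loci: XTH1, XTH2, XTH3, XTH10, XTH11, XTH12, XTH13, XTH14, XTH18, XTH20, XTH21, XTH23, XTH26 and XTH29. Their values ran from 3.33 to 4.56, close to the lower end of the scale, where an array cannot tell a low level from none. XTH12, XTH13, XTH14, XTH18, XTH20, XTH21 and XTH26 are known mainly from roots, and XTH3 encodes an enzyme that can also join cellulose chains. The levels are signals of different probes, so they place no member above another in RNA amount.

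**Figure D1:**
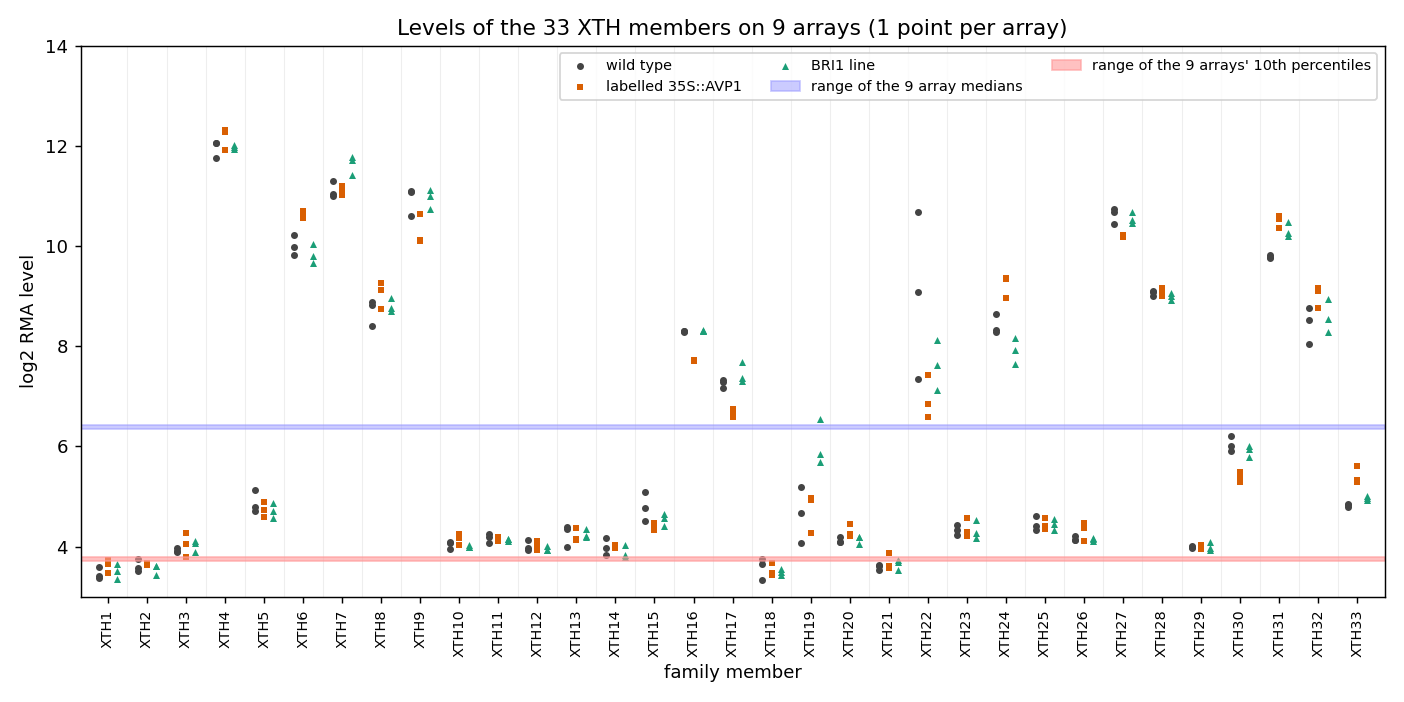
Log2 RMA level (vertical axis) of each of the 33 members (horizontal axis) on each of the 9 arrays, 1 point per array, with wild type as dark circles, the arrays labelled 35S::AVP1 as orange squares and the BRI1 line as green triangles. The blue band is the range of the array medians (6.34 to 6.42) and the red band that of their 10th percentiles (3.71 to 3.79). The 13 members named above lie over the blue band on every array, and 14 members lie between 3.33 and 4.56.

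The arrays labelled 35S::AVP1 were set against wild type to find which members differ in that line. XTH31, XTH24, XTH6 and XTH33 were higher, by 1.51-fold to 1.75-fold, and XTH30, XTH9, XTH17, XTH16 and XTH27 were lower, by 1.34-fold to 1.57-fold. The changes thus went both ways within the family, and the median log2 change of the 33 members was 0.02 against 0.05 for all loci. In all, 4 members rose, 5 fell and 24 were not called (27.3% called) by limma with Benjamini-Hochberg adjustment over all loci, at an adjusted p under 0.05. Of all 20777 loci 11.1% were called, 6.31% higher and 4.76% lower. With all loci ranked by mean level in 4 bins of equal size, 6 of 11 members in the brightest bin were called against 13.1% of its loci, 1 of 2 in the next against 14.7%, 2 of 6 in the third against 13.9%, and 0 of 14 in the dimmest against 2.58%. At 10 members, the 9 called ones without XTH9 and with XTH20 and XTH15, every array of one group lay beyond every array of the other (30.3%, 5 higher and 5 lower), near the 28.4% of all loci (18.8% higher and 9.63% lower). The 12 members with an unadjusted p under 0.05 (24.2% of all loci had one) were these 9 with XTH15, XTH22 and XTH32.

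The subfamily called group IIIA holds XTH31 and XTH32, whose enzymes are known to cut xyloglucan rather than rejoin it. XTH31 (AT3G44990) measured 9.79, 9.82 and 9.76 in wild type, 10.60, 10.55 and 10.36 on the arrays labelled 35S::AVP1, and 10.49, 10.27 and 10.21 in the BRI1 line. All 6 arrays of both lines lay above all 3 of wild type. The rise on the arrays labelled 35S::AVP1 was 1.65-fold, or 0.72 as a log2 change (SE 0.09, 95% interval 0.52 to 0.92; limma adjusted p = 0.000595). In the BRI1 line the difference was 0.54 (95% interval 0.34 to 0.74, 1.45-fold; limma adjusted p = 0.111), which was not called. The 2 lines differed from each other by -0.18 (BRI1 line minus 35S::AVP1 label, 95% interval -0.38 to 0.02; limma adjusted p = 0.260), also not called.

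XTH32 (AT2G36870) measured 8.77, 8.52 and 8.05 in wild type, 9.16, 9.10 and 8.77 on the arrays labelled 35S::AVP1, and 8.95, 8.30 and 8.54 in the BRI1 line. Its wild type arrays spread over more than the gap between the groups, and the lowest array labelled 35S::AVP1 lay level with the highest of wild type, at 8.77 each. The difference of 0.56 was not called (95% interval 0.11 to 1.02; limma adjusted p = 0.118), and with the replicate number as a block it was (adjusted p = 0.0281). In the BRI1 line XTH32 differed from wild type by 0.15 (95% interval -0.31 to 0.60).

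The subfamily IIIB holds XTH27, XTH28, XTH29, XTH30 and XTH33, and 2 of the 5 fell and 1 rose on the arrays labelled 35S::AVP1. This is 60% called, against 11.1% of all loci (6.31% higher and 4.76% lower). XTH30 (AT1G32170), known for its part in salt tolerance, measured 5.91, 6.20 and 6.02 in wild type, 5.28, 5.48 and 5.39 on the arrays labelled 35S::AVP1, and 6.01, 5.95 and 5.79 in the BRI1 line. The arrays labelled 35S::AVP1 lay below the other 6, which overlapped. The fall was 1.57-fold (log2 change -0.65, SE 0.10; limma adjusted p = 0.00162). XTH33 (AT1G10550), whose protein is held at the plasma membrane, measured 4.85, 4.84 and 4.78 in wild type, 5.30, 5.61 and 5.33 on the arrays labelled 35S::AVP1, and 4.93, 4.98 and 5.01 in the BRI1 line. It rose 1.51-fold there (log2 change 0.59, SE 0.09; limma adjusted p = 0.00162). All 3 arrays of the BRI1 line also lay above wild type, by 0.15 on average (95% interval -0.04 to 0.34; limma adjusted p = 0.957), which was not called.

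XTH27 (AT2G01850), also named EXGT-A3 and known from the vessels of leaf veins, measured 10.75, 10.68 and 10.45 in wild type, 10.18, 10.23 and 10.21 on the arrays labelled 35S::AVP1, and 10.69, 10.52 and 10.47 in the BRI1 line. The arrays labelled 35S::AVP1 were lowest and close together. The fall was 1.34-fold (log2 change -0.42, SE 0.09; limma adjusted p = 0.0145). It was not called without wild type replicate 2 (adjusted p = 0.0588) or replicate 1 labelled 35S::AVP1 (0.0514). Of 5 xylem markers, the vessel protease gene XCP1 was also lower there, at 7.02 to 7.16 against 7.48 to 7.71 in wild type (log2 change -0.53; limma adjusted p = 0.00857). Its partner XCP2 and the cellulose synthase genes IRX1, IRX3 and IRX5 of the secondary wall were not called. Thus 20% of the 5 xylem markers were called, against 11.1% of all loci. The summed level of the 5 was 33.5 to 34.2 against 33.9 to 34.7. The part of vessel cells in the XTH27 result was not tested. XTH28 (AT1G14720), known for the growth of stamen filaments, lay at 8.93 to 9.17 on all 9 arrays, and its change was 0.02 (95% interval -0.14 to 0.17) on the arrays labelled 35S::AVP1 and -0.07 (-0.22 to 0.09) in the BRI1 line. Of 4 flower markers, the homeotic genes SEP3 (log2 change 1.80, limma adjusted p = 2.33e-05) and AG (0.57, 0.00472) rose on the arrays labelled 35S::AVP1. AP3 and PI were not called, so 50% of the flower markers were called there, against 11.1% of all loci. AG lay close to the lower end of the scale, at 3.34 to 3.48 in wild type and 3.75 to 4.13 on the arrays labelled 35S::AVP1. The summed level of the 4 was 18.0 to 19.5 on the arrays labelled 35S::AVP1, against 15.8 to 16.3 in wild type and 15.2 to 15.9 in the BRI1 line. XTH29 lay at 3.94 to 4.10 on all arrays.

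The remaining 26 members form groups I and II, and 2 of them rose and 3 fell on the arrays labelled 35S::AVP1. This is 19.2% called, against 11.1% of all loci (6.31% higher and 4.76% lower). XTH24 (AT4G30270), first described as the meristem gene MERI5, measured 8.29, 8.33 and 8.64 in wild type, 9.35, 9.36 and 8.96 on the arrays labelled 35S::AVP1, and 8.18, 7.64 and 7.92 in the BRI1 line. The 3 genotypes did not overlap, with wild type in the middle. The rise on the arrays labelled 35S::AVP1 was 1.75-fold (log2 change 0.80, 95% interval 0.45 to 1.15; limma adjusted p = 0.00863). The difference in the BRI1 line was -0.50 (95% interval -0.85 to -0.15; limma adjusted p = 0.670) and was not called. The lines differed from each other by 2.47-fold (log2 -1.31, SE 0.16, BRI1 line minus 35S::AVP1 label; limma adjusted p = 0.000460).

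XTH6 (AT5G65730) measured 10.23, 9.98 and 9.83 in wild type, 10.71, 10.58 and 10.56 on the arrays labelled 35S::AVP1, and 10.04, 9.67 and 9.80 in the BRI1 line. The arrays labelled 35S::AVP1 were the highest, while wild type and the BRI1 line overlapped. It rose 1.52-fold (log2 change 0.61, SE 0.12; limma adjusted p = 0.00903), and stood 0.18 below wild type in the BRI1 line (log2 change -0.18, 95% interval -0.44 to 0.09).

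XTH16 (AT3G23730) measured 8.28, 8.32 and 8.31 in wild type, 7.74, 7.72 and 7.70 on the arrays labelled 35S::AVP1, and 8.31, 8.32 and 8.30 in the BRI1 line. Arrays of a genotype lay so close together that its pooled SD, 0.015, was the second smallest of all 20777 loci, and wild type and the BRI1 line were level. The fall on the arrays labelled 35S::AVP1 was 1.5-fold (log2 change -0.58, SE 0.06; limma adjusted p = 0.000104), and the BRI1 line differed from wild type by 0.01 (95% interval -0.11 to 0.14). The SE is larger than the spread of its own arrays because limma draws each locus toward the spread of all loci.

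XTH17 (AT1G65310), known from roots and from the stretching of petioles in shade, measured 7.17, 7.33 and 7.29 in wild type, 6.59, 6.69 and 6.74 on the arrays labelled 35S::AVP1, and 7.69, 7.37 and 7.30 in the BRI1 line. The arrays labelled 35S::AVP1 were the lowest and the other groups overlapped. It fell 1.5-fold (log2 change -0.59, SE 0.10; limma adjusted p = 0.00473). XTH15 (AT4G14130), also named XTR7 and needed with XTH17 for petiole growth in shade, measured 4.52, 4.77 and 5.09 in wild type, 4.33, 4.43 and 4.47 on the arrays labelled 35S::AVP1, and 4.64, 4.58 and 4.40 in the BRI1 line. The arrays labelled 35S::AVP1 lay below those of wild type. The difference of -0.38 was not called (95% interval -0.67 to -0.09; limma adjusted p = 0.0982), but was called without wild type replicate 1 (-0.52, adjusted p = 0.0193).

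XTH9 (AT4G03210), which acts with XTH4 in the wood-forming tissue of the stem, measured 10.61, 11.08 and 11.10 in wild type, 10.12, 10.10 and 10.64 on the arrays labelled 35S::AVP1, and 10.74, 10.99 and 11.13 in the BRI1 line. Replicate 3 labelled 35S::AVP1 stood just above wild type replicate 1, so these groups overlapped. The fall was 1.57-fold (log2 change -0.65, SE 0.18; limma adjusted p = 0.0427). It failed in 9 of 15 alternative fits, including those without wild type replicate 2 (adjusted p = 0.142) or 3 (0.112), replicate 1 (0.140) or 2 (0.147) labelled 35S::AVP1, or BRI1 line replicate 2 (0.0620) or 3 (0.0567). XTH4 (AT2G06850) lay at 11.77 to 12.31 on all arrays, with a change of 0.20 on the arrays labelled 35S::AVP1 (95% interval -0.06 to 0.46) and 0.01 in the BRI1 line (-0.25 to 0.27). XTH8 (AT1G11545) measured 8.40 to 8.88 in wild type and 8.75 to 9.26 on the arrays labelled 35S::AVP1 (log2 change 0.34, 95% interval -0.01 to 0.69).

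**Figure D2:**
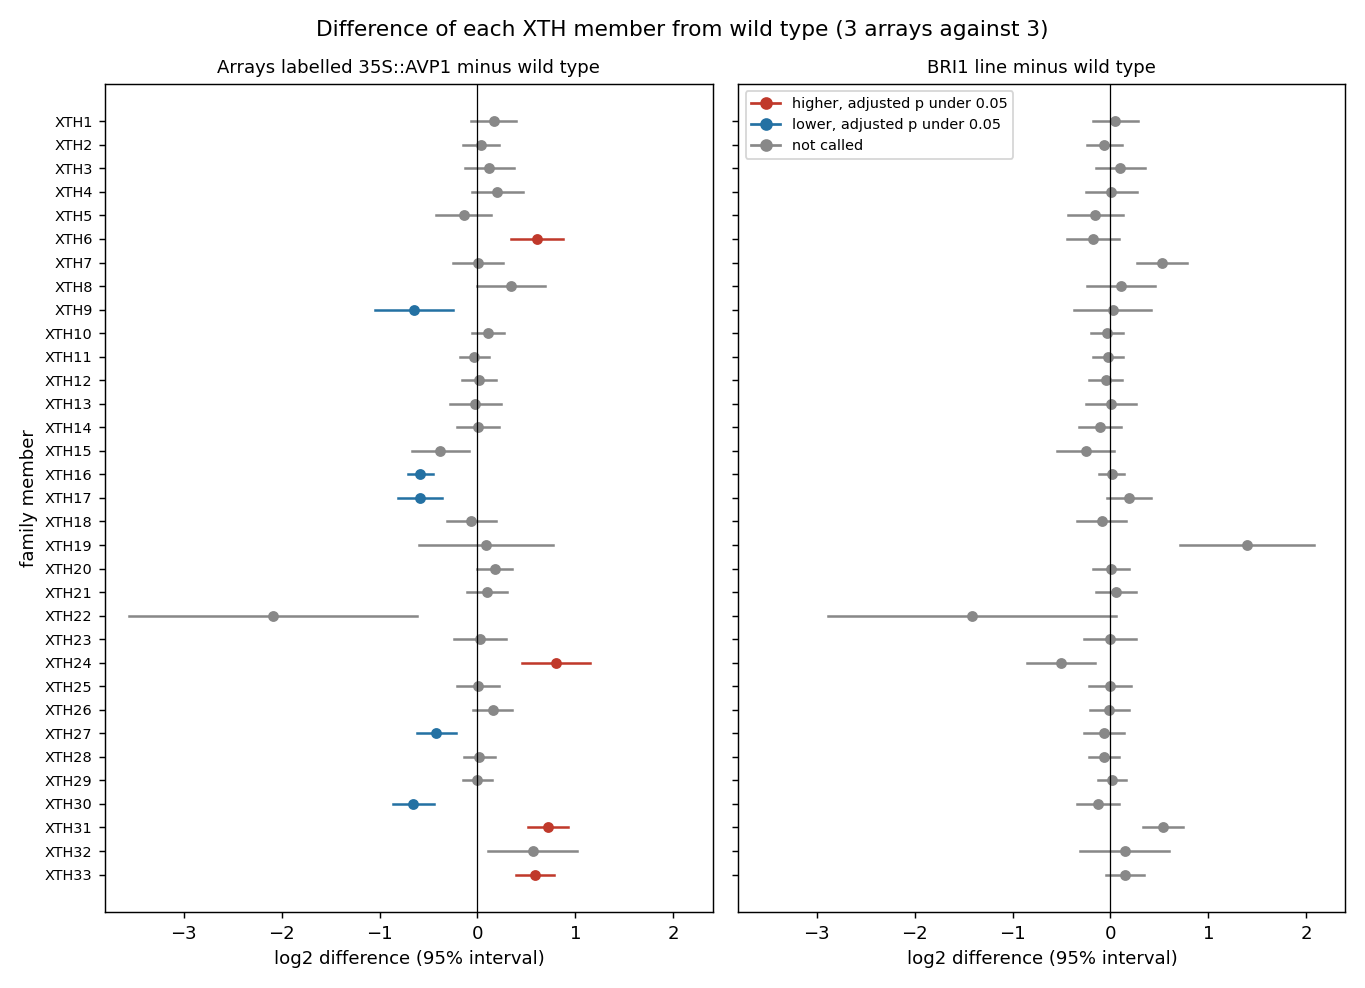
Log2 difference from wild type (horizontal axis, point) with its 95% interval (line) for each of the 33 members (vertical axis), on the arrays labelled 35S::AVP1 (left) and in the BRI1 line (right). Red marks a higher and blue a lower level at an adjusted p under 0.05, and grey the rest. On the left 4 members are red and 5 blue, and on the right all 33 are grey, with XTH19, XTH22, XTH31, XTH7 and XTH24 farthest from 0.

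Wild type was set against the BRI1 line to ask which members differ when more BRI1 RNA is present. By limma 0 of 33 members were called, against 0.0818% of all loci (0.0385% higher and 0.0433% lower). An unadjusted p under 0.05 was reached by 4 members, against 5.3% of all loci. These 4 were XTH31 (0.54), XTH7 (0.53) and XTH19 (1.39), with positive log2 differences, and XTH24 (-0.50). The arrays of both groups stood fully apart at 5 members (15.2%), namely these 4 and XTH33, against 10.1% of all loci (4.38% higher and 5.75% lower). The median log2 difference of the family was 0.00, against -0.01 for all loci. Of 33 intervals, 26 lay within 0.5 of 0 on the log2 scale (1.41-fold) and 31 within 1 (2-fold). Those of XTH19 and XTH22 reached past 2-fold.

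XTH19 (AT4G30290), known from roots and close in sequence to XTH17, measured 5.19, 4.66 and 4.06 in wild type, 4.97, 4.92 and 4.27 on the arrays labelled 35S::AVP1, and 6.56, 5.69 and 5.84 in the BRI1 line. All 3 arrays of the BRI1 line were above the other 6, and wild type alone spanned more than 1 unit. The difference from wild type was 1.39 (SE 0.31, 95% interval 0.71 to 2.08, 2.63-fold; limma adjusted p = 0.305), not called, and with the replicate number as a block it was (adjusted p = 0.0333). The BRI1 line was 2.48-fold higher than the arrays labelled 35S::AVP1 (log2 1.31, SE 0.31; limma adjusted p = 0.0233). That call was lost without replicate 2 (adjusted p = 0.0503) or 3 (0.0773) labelled 35S::AVP1, without BRI1 line replicate 1 (0.0796) or 3 (0.0562), or with an intensity trend and robust prior (0.0662). Wild type replicate 3 (4.06) and replicate 3 labelled 35S::AVP1 (4.27) lay close to the lower end of the scale. There an array cannot tell a low level from none, so the fold differences of XTH19 are uncertain.

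XTH7 (AT4G37800) measured 11.31, 11.00 and 11.04 in wild type, 11.20, 11.02 and 11.14 on the arrays labelled 35S::AVP1, and 11.79, 11.42 and 11.72 in the BRI1 line. The BRI1 line was above both other groups, which lay level. Its difference from wild type, 0.53 (95% interval 0.27 to 0.79, 1.44-fold; limma adjusted p = 0.297), was not called, and that from the arrays labelled 35S::AVP1 was (log2 0.52, SE 0.11; limma adjusted p = 0.0167). The latter failed without replicate 2 labelled 35S::AVP1 (adjusted p = 0.0685) or BRI1 line replicate 1 (0.0658) or 3 (0.0728).

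**Figure D3:**
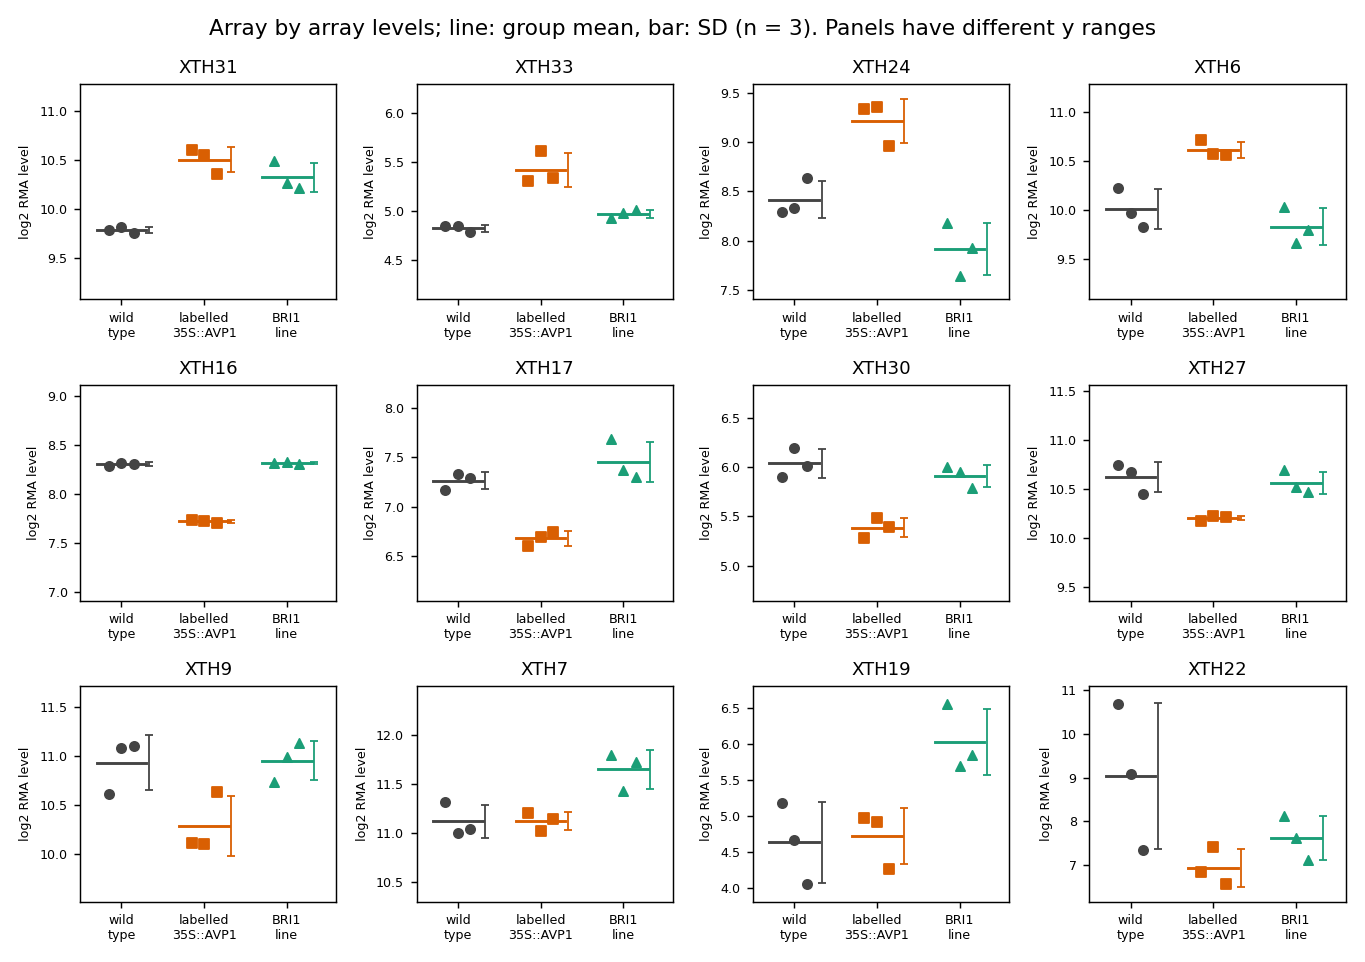
Log2 RMA level (vertical axes, which differ between panels) of 12 members on each array, by genotype (horizontal axis), with the group mean as a line and its SD (n = 3) as a bar. XTH31 is lowest in wild type. XTH24 arrays of the 3 genotypes do not overlap, though its difference between the BRI1 line and wild type was not called. XTH16 arrays of a genotype nearly coincide, XTH7 and XTH19 are highest in the BRI1 line, and XTH22 spans 7.34 to 10.67 in wild type alone.

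XTH22 (AT5G57560), the touch gene TCH4, had the widest spread of the family. It measured 10.67, 9.09 and 7.34 in wild type, 6.84, 7.43 and 6.58 on the arrays labelled 35S::AVP1, and 8.13, 7.62 and 7.13 in the BRI1 line. Wild type replicate 1 was the highest array and wild type replicate 3 lay among those of the other genotypes, so both comparisons with wild type overlapped. Its SD in wild type was 1.67, and its pooled SD ranked 21 from the largest of the 20777 loci. The log2 difference from wild type was -2.08 on the arrays labelled 35S::AVP1 (95% interval -3.55 to -0.61; limma adjusted p = 0.0758) and -1.41 in the BRI1 line (-2.88 to 0.06; adjusted p = 0.950), and neither was called. Without wild type replicate 1 these were -1.26 (adjusted p = 0.145) and -0.59 (0.942). Without wild type replicate 3 the first was -2.93 and was called (adjusted p = 0.00296), as it was with the replicate number as a block (0.0224).

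Of 10 other genes induced by touch and rapid stress, 9 had the same order among the wild type arrays as XTH22, with replicate 1 highest of all 9 arrays and replicate 3 lowest of wild type. How many of all loci share this order was not counted, and the 10 were chosen with earlier results of these data known. The calmodulin-like gene TCH3 measured 10.49, 9.06 and 7.99 in wild type, the calmodulin-like gene TCH2 8.71, 7.47 and 6.28, and the deadenylase gene CAF1A 9.12, 7.78 and 6.53. The exception was the transcription factor gene WRKY53, at 6.16, 5.27 and 5.93 in wild type and 6.20 to 6.43 on the arrays labelled 35S::AVP1. Of the 10, CAF1A was called lower on the arrays labelled 35S::AVP1 (log2 change -1.81, limma adjusted p = 0.0425) and the other 9 were not called there. That is 10% called, near the 11.1% of all loci. The CAF1A call was kept in only 2 of the 9 fits that left out 1 array (limma adjusted p up to 0.119). The summed level of 10 such genes was 75.6, 61.1 and 54.3 in wild type, 55.1 to 61.2 on the arrays labelled 35S::AVP1 and 54.5 to 55.2 in the BRI1 line. Replicate 2 labelled 35S::AVP1 was the highest of its group both for XTH22 and for this sum. The part of touch or handling in the XTH22 values was not tested.

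**Figure D4:**
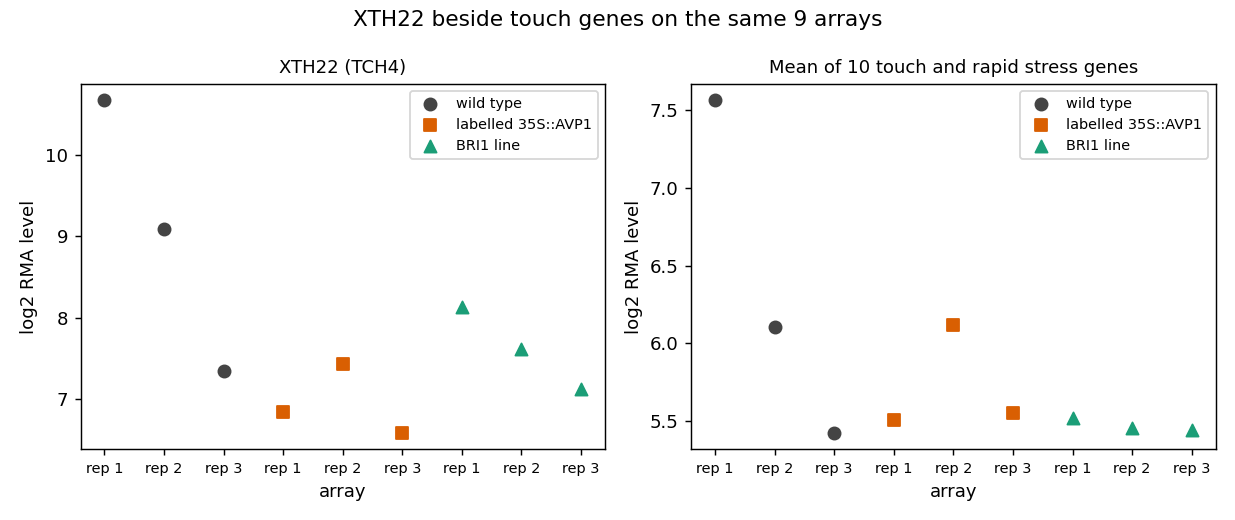
Log2 RMA level (vertical axes) of XTH22 (left) and mean log2 level of 10 touch and rapid stress genes (right) on each of the 9 arrays (horizontal axis), with wild type as dark circles, the arrays labelled 35S::AVP1 as orange squares and the BRI1 line as green triangles. Wild type replicate 1 is the highest array in both panels, at 10.67 and 7.56, and wild type replicate 3 lies at 7.34 and 5.43.

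Between the 2 lines, 7 members were higher and 3 lower in the BRI1 line than on the arrays labelled 35S::AVP1 (30.3% called, against 10.3% of all loci, 4.05% higher and 6.27% lower). The arrays stood fully apart at 12 members (36.4%, 7 higher and 5 lower), against 30.3% of all loci (9.36% higher and 21% lower). This comparison uses the same arrays as the previous ones, so it is not separate evidence. Besides XTH19, XTH7 and XTH24, XTH17 was 1.71-fold higher in the BRI1 line (log2 0.78, limma adjusted p = 0.000860), XTH16 1.51-fold (0.60, 9.44e-05), XTH9 1.59-fold (0.67, 0.0392), XTH30 1.44-fold (0.53, 0.00602) and XTH27 1.28-fold (0.35, 0.0333). XTH6 was lower by 1.72-fold (-0.78, limma adjusted p = 0.00219) and XTH33 by 1.36-fold (-0.44, 0.00907). XTH9 failed without wild type replicate 2, replicate 1 or 2 labelled 35S::AVP1, or BRI1 line replicate 2 or 3, and with the trend and robust prior (adjusted p = 0.0686). XTH27 failed without wild type replicate 2 or any 1 of the 6 arrays of the 2 lines (adjusted p up to 0.117). The count of calls was 6 without replicate 2 labelled 35S::AVP1 and 6 without BRI1 line replicate 3.

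Several members lie side by side in the genome. On chromosome 4, XTH24, XTH18 and XTH19 are consecutive protein-coding genes in the TAIR10.1 gene table. XTH24 had its lowest and XTH19 its highest levels in the BRI1 line, neither of them called there against wild type, while XTH18 lay at 3.33 to 3.76 on all arrays. On chromosome 5, XTH13, XTH25 and XTH22 are consecutive and XTH12 is 1 gene away. XTH22 ranged from 6.58 to 10.67, while XTH12 lay at 3.93 to 4.13, XTH13 at 3.98 to 4.39 and XTH25 at 4.33 to 4.60. The neighbours XTH1 and XTH2, and XTH23 (XTR6) and XTH14, also on chromosome 4, lay at 3.35 to 4.56 on all arrays. XTH5 (AT5G13870) lay at 4.57 to 5.13, with a change of -0.14 on the arrays labelled 35S::AVP1 and -0.16 in the BRI1 line, neither of them called.

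The 14 members among the dimmest 25% of loci, which include XTH12, XTH13, XTH14, XTH18, XTH20, XTH21 and XTH26 of the root, differed from wild type by -0.06 to 0.17 on the arrays labelled 35S::AVP1 and by -0.10 to 0.10 in the BRI1 line. Their 95% intervals stayed between -0.34 and 0.39 in both comparisons, and 0 had an unadjusted p under 0.05 in either by limma. Signals this close to the lower end of the scale understate any change. The root-expressed gene PYK10 was higher on the arrays labelled 35S::AVP1 (log2 change 0.86, limma adjusted p = 0.000698). Its difference in the BRI1 line, 0.68, was not called (limma adjusted p = 0.0902, groups not overlapping). The root hair genes EXPA7, EXPA18 and COBL9 and the oxidase gene RHD2 were not called. On the arrays labelled 35S::AVP1 this is 20% of the 5 root genes called, against 11.1% of all loci. The summed level of these 5 root genes was 29.6 to 29.9 in wild type, 30.9 to 31.3 on the arrays labelled 35S::AVP1 and 30.5 to 30.8 in the BRI1 line, and PYK10 made up the larger share of both differences.

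The substrate of the XTH enzymes is made in the Golgi by glucan synthases (CSLC), xylosyltransferases (XXT), galactosyl- and fucosyltransferases and an acetyltransferase (AXY4), and is trimmed in the wall by glycosidases. Of 18 such genes, 1 rose and 0 fell on the arrays labelled 35S::AVP1 (5.56% called, against 11.1% of all loci). It was the xylosyltransferase gene XXT4, at 5.09 ± 0.10 (SD, n = 3) against 4.58 ± 0.18 in wild type and 4.55 ± 0.13 in the BRI1 line (log2 change 0.51, SE 0.10; limma adjusted p = 0.0111). The median log2 change of the 18 was 0.04. In the BRI1 line 0 of 18 were called by limma, against 0.0818% of all loci, and 2 had an unadjusted p under 0.05, against 5.3%, namely XXT5 (log2 difference -0.22, adjusted p = 0.670) and the galactosyltransferase gene XLT2 (0.23, adjusted p = 0.824). The median of the 18 there was 0.01. Between the lines, XXT4 was the 1 gene of 18 called, where 10.3% of all loci were, and it was lower in the BRI1 line (log2 -0.54, limma adjusted p = 0.00926).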

How the data were processed

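Total RNA of 9 seedling samples was measured on ATH1 arrays. The deposited values are log2 levels, made by the authors with RMA per the submitters' processing notes. Which RMA version was run, how probes map to loci and which arrays were normalized together is not stated in the labels. Whether probes of one member also bind RNA of another was not tested. There are no read counts; precision is limited by having 3 arrays per genotype.

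With limma 3.58.1 (R 4.3.3; lmFit and eBayes), all 20777 loci were fitted with a mean for each genotype and no filter, and p-values were adjusted by Benjamini-Hochberg over all loci in each of 3 contrasts. All members are named, with array by array values for those called in a contrast, for XTH22 (TCH4), and for XTH15 and XTH32, which were added after their values were seen. The members and lists were chosen with earlier results of these data known. Gene order and symbols came from the TAIR10.1 gene table, which held all 33 members. WOX5, RBCS1A, CAB1 and LHCB2.1 of the marker lists were not among the measured loci, so RCA and GLDP1 were the only leaf markers available. Alternatives were quantile normalization, median centring, leaving out the dimmest 25% of loci, fitting 2 genotypes alone, an intensity trend with a robust prior, the replicate number as a block, and leaving out each array.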

Additional observations from a re-analysis of the deposited data

How the results depend on the processing

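The count of members called on the arrays labelled 35S::AVP1 was 7 to 11 over the 15 alternatives and 7 to 10 without any 1 array, against 9. XTH6, XTH16, XTH17, XTH24, XTH30, XTH31 and XTH33 were called in all 15, and XTH9 and XTH27 failed in 9 and 2. With the replicate number as a block XTH22 and XTH32 were called too (11 in all). In the BRI1 line the count was 0 of 33 in the other alternatives, 1 with the replicate block (XTH19) and 1 with an intensity trend and robust prior (XTH31, adjusted p = 0.0338), and 0 to 0 without any 1 array. Between the lines it was 6 to 10 without any 1 array, and 8 with the trend (XTH9 and XTH19 lost), against 10; the cause was not tested. All members called in a contrast kept their direction there in all 15 alternatives. Of the xyloglucan genes on the arrays labelled 35S::AVP1, 2 were called with the replicate block (AXY4 added) and 2 with the trend or without the dimmest loci (XLT2 added), and 1 to 2 without any 1 array (XXT2 added, lower, without replicate 3 labelled 35S::AVP1). Between the lines it was also 1 to 2, with XXT2 added without the same array. Arrays that share a replicate number deviated from their group means with correlations of 0.02 to 0.48, over 0.1 in 5 of 9 pairs. Between arrays with different numbers the correlations ran from -0.50 to 0.49. The labels do not state whether equal numbers mark arrays handled together, so the main fit used no pairs and the block is given as an alternative. Of all loci, 2602 were called on the arrays labelled 35S::AVP1 with the block, against 2300 without it. The replicate block changed no other call of a member in any contrast. Of members not called, 13 changed sign in some alternative on the arrays labelled 35S::AVP1 and 14 in the BRI1 line. Among all loci called on the arrays labelled 35S::AVP1, 57% were higher, and 49.1% after quantile normalization and 47.3% after median centring. Between the lines 39.2%, 52.4% and 56.4% of all called loci were higher in the BRI1 line, and in the BRI1 line against wild type 47.1%, 64.3% and 64.7%; the members called on the arrays labelled 35S::AVP1 were 4 higher and 4 lower after quantile normalization and 4 and 5 after centring. Of all loci, 17 were called in the BRI1 line against wild type, 7 with those 2 genotypes alone and 3 to 10 without any 1 array. Signal near the lower end of the scale limits what 14 members can show.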
